A study of Arabidopsis thaliana with 8 samples.

Results

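Of the 1064 reproducible PIF3-binding sites in dark-grown *Arabidopsis* seedlings, 292 held neither of the sequences that mark most of these sites, the G-box (CACGTG) and the PBE-box (CACATG). Their values were taken from each biological replicate and set against those of the 772 sites that hold a box. A site was made where ChIP-seq peak summits of at least 2 of the 4 replicates lay less than 100 bp from the next summit, and it was centred on their mean. A site was counted as lacking both boxes where neither sequence, on either strand, lay less than 100 bp from the mean summit. Of the 772 other sites, 533 held a G-box and 239 held the PBE-box only. The rule thus used DNA sequence and presence in 2 peak lists, and neither the height of a peak nor its place relative to genes.

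The peaks came from 8 ChIP libraries, 4 from P3M seedlings and 4 from wild-type (WT) seedlings, all of the Col-0 accession. P3M is 1 transgenic line that expresses 35S:6xHis-PIF3-5xMYC in the *pif3-3* null mutant, so that the constitutive 35S promoter, and not that of *PIF3*, drives the tagged protein. WT seedlings carry no MYC epitope and served as the negative control for the MYC antibody. Whole seedlings were 2 d old and grown in darkness, after the seeds had received 3 h of white light at 21°C and 15 min of far-red light. The authors called peaks in each P3M library with its own replicate's WT library as control, and each list, numbered here by its replicate, therefore already holds the comparison of P3M with WT. The lists held 696, 2517, 526 and 3089 peaks for replicates 1 to 4, and the median peak held 87, 109, 159.5 and 189 P3M tags. Tags are reads uniquely placed in the peak. The fold enrichment relates the P3M tags at the summit to a local background, with the WT library as the control. Each list has its own scale, so that the values of sites with and without a box were compared within a list only. Where the folds of a single site are given over several lists, differences between them include the scale of the list.

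PIF3 is a bHLH transcription factor of the phytochrome-interacting family, which accumulates in darkness and is degraded after phytochrome is activated by light. Factors of this class bind E-boxes, palindromic or near-palindromic sequences of the form CANNTG, of which the G-box and the PBE-box are variants. The ACGT core of the G-box is also read by bZIP factors, and the sequence TGGGCC or TGGGCT, the site II element of plant promoters, is known as a target of TCP factors.

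The sequences that set these sites apart from their surroundings were ATGGGC and its near copy ATGGGT, the G-box core ACGTG without the full box, and the E-box variant CAAGTG. Stretches of 81 bases around the mean summit of 11 sites, 40 bases to either side, are printed to show these sequences in place, and capitals mark each occurrence on either strand (GCCCAT is the reverse complement of ATGGGC, while CACGT is that of ACGTG, and CACTTG is that of CAAGTG). All are from the plus strand of RefSeq TAIR10.1, and all are intergenic. The first set shows ATGGGC near the summit, upstream of *AT1G55210*, which encodes a dirigent-like protein (chr1:20599550-20599630), of *AT2G39950* (chr2:16680655-16680735), of the protein kinase gene *WAG2* (chr3:4802767-4802847), of *AT3G54000* (chr3:19994674-19994754) and of the auxin receptor gene *TIR1* (chr3:23277555-23277635).
AT1G55210: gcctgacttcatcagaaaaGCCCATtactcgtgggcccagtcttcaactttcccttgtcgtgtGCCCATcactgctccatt
AT2G39950: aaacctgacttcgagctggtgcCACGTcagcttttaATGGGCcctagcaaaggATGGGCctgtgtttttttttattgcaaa
WAG2: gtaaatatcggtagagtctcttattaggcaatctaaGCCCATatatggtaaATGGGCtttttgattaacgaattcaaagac
AT3G54000: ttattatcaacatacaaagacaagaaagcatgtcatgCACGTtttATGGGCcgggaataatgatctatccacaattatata
TIR1: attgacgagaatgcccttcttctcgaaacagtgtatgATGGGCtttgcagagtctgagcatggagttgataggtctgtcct

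The second set shows the G-box core with another base in place of the outer C or G. These sites lay upstream of *AHL20*, which encodes an AT-hook protein (chr4:8320012-8320092), of the AP2/B3 transcription factor gene *RAV1* (chr1:4540695-4540775) and of the R2R3 MYB gene *MYB7* (chr2:7258936-7259016). The *RAV1* site holds ATGGGC as well.
AHL20: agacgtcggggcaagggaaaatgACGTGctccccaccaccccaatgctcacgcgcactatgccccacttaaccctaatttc
RAV1: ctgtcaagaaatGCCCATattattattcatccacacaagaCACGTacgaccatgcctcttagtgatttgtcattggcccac
MYB7: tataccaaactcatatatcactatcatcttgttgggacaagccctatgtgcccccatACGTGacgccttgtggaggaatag

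The third set shows a site with CAAGTG, upstream of *EXO*, a brassinosteroid-induced gene of cell expansion (chr4:5736636-5736716), and 2 sites where the 81 bases hold none of these sequences. These lay upstream of the B-box gene *bbx23* (chr4:6370046-6370126) and of *HMT-1*, which encodes a homocysteine methyltransferase (chr3:9479840-9479920). The full 201 bp of the *EXO* and *bbx23* sites do hold ATGGGC or ATGGGT. The printed stretches of *EXO*, *bbx23* and *HMT-1* also hold CCATGC, a further sequence that was more frequent at the sites, which is not marked. Those of *EXO* and *bbx23* hold the longer GCATGGG on one or the other strand, counted below and likewise not marked. The mean summit of the *EXO* site falls on it.
EXO: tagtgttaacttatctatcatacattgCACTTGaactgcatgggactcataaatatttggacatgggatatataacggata
bbx23: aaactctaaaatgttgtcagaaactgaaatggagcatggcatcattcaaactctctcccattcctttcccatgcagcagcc
HMT-1: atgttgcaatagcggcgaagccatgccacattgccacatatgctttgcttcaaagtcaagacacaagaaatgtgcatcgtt

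The sites without a box were found in fewer replicates than the sites with one. Of the 292 sites, 225 (77.1%) were present in 2 lists, 51 (17.5%) in 3 and 16 (5.48%) in all 4, whereas 393 (50.9%), 220 (28.5%) and 159 (20.6%) of the 772 sites with a box were in 2, 3 and 4 lists. The exact 95% binomial intervals of the share in all 4 lists ran from 3.16% to 8.75% without a box and from 17.8% to 23.6% with a box, and the odds ratio was 0.223 (Fisher's exact test, two-sided, p = 1.5e-10). Intervals here and below cover counting error only. Sites without a box accordingly made up 36.4% of all sites in 2 lists, 18.8% of those in 3 lists and 9.14% of those in 4 lists. The pair of lists 2 and 4, the longest, accounted for 136 sites without a box (46.6%) and for 206 sites with a box (26.7%). Without replicate 2 or replicate 4, 139 or 84 sites without a box were left.

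This comparison was repeated for each replicate in turn, with sites built from the other 3 lists and looked up in the list left out. Of the sites without a box, 44 of 260 (16.9%) were found again in list 1, 63 of 139 (45.3%) in list 2, 42 of 235 (17.9%) in list 3 and 66 of 84 (78.6%) in list 4. Of the sites with a box, 299 of 663 (45.1%), 357 of 520 (68.7%), 261 of 690 (37.8%) and 375 of 427 (87.8%) were found again in lists 1 to 4. The share was lower without a box in all 4 lists, with differences of -28.2, -23.3, -19.95 and -9.25 percentage points. Mean recovery was 39.7% ± 29.1 without a box and 59.9% ± 22.8 with a box (SD, n = 4 lists), and the mean difference was -20.2 ± 8.03 percentage points, with p = 0.125 in an exact two-sided sign-flip permutation test. That is the smallest p that 4 lists allow, so that the test could not pass 0.05. Recovery rose with the length of the list looked up for both kinds of site, from lists 1 and 3 to list 2 and list 4.

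**Figure D1:**
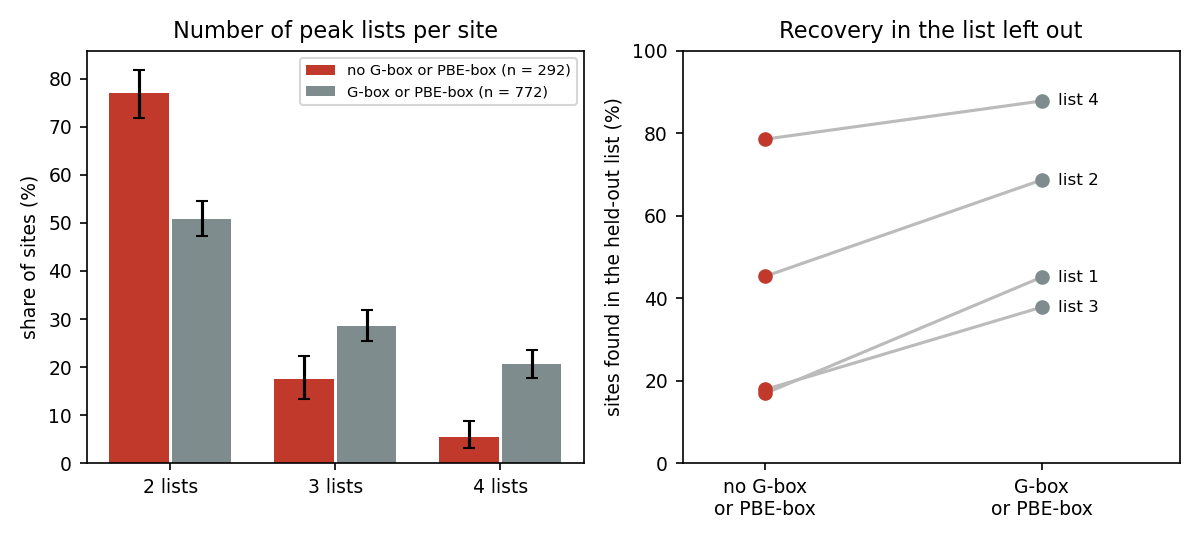
Number of peak lists per site (left; share of sites in percent, bars with exact 95% binomial intervals) and recovery in the list left out (right; percent of sites built from the other 3 lists), for sites without a box and sites with a box. In each of the 4 held-out lists the share without a box lies below that with a box, and the gap is smallest in list 4, with 78.6% and 87.8%.

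The summits of different lists lay about as close together at both kinds of site. The summits of a site spanned a median of 18 bp for sites without a box in 2 lists, 28 bp for those in 3 lists and 31.5 bp for those in 4 lists, and of 17, 25.5 and 27 bp for sites with a box in 2, 3 and 4 lists. No test was made of these distances. The share lacking both boxes was higher among peaks that entered no site, at 56.6%, 72.4%, 58.5% and 61.1% in lists 1 to 4, than among the sites, at 27.4%. It was 87.7% in 2128 windows of 201 bp placed 500 bp away on both sides of all 1064 sites.

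Peaks at sites without a box had a lower median fold and fewer tags in each list, in a comparison of 4 lists that cannot pass 0.05. Their median fold enrichment was 4.985 in list 1 (76 sites), 4.565 in list 2 (216 sites), 3.95 in list 3 (101 sites) and 5.78 in list 4 (274 sites). At sites with a box it was 5.485 (408 sites), 5.12 (611 sites), 4.81 (343 sites) and 6.43 (720 sites) in lists 1 to 4. The ratio of medians was 0.909, 0.892, 0.821 and 0.899, below 1 in every list, with a mean of -0.19 ± 0.067 on the log2 scale (SD, n = 4 lists; exact sign-flip permutation test, two-sided, p = 0.125, the smallest it allows). Sites with the PBE-box only were closer, with median folds of 5.32, 5.12, 4.44 and 6.085 in lists 1 to 4. Against these alone the mean log2 ratio was -0.126 (exact sign-flip permutation test, p = 0.125). Median tags were 82, 110.5, 141 and 252 without a box and 93.5, 121, 170 and 289.5 with a box in lists 1 to 4, a mean log2 ratio of -0.20 ± 0.057 with the same exact permutation p of 0.125. The median length of the peaks differed little, at 496.5, 523.5, 532 and 647 bp without a box and 505, 521, 558 and 661.5 bp with a box.

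The ranges of the groups overlapped widely in each list. The highest fold without a box was 8.86, 9.81, 7.87 and 19.75 in lists 1 to 4, and with a box 22.8, 27.0, 22.8 and 34.1. Counted from the top of each list by p-value, the median peak without a box stood at 43.5%, 39.8%, 59.5% and 26.8% of lists 1 to 4, and the median peak with a box at 35.6%, 22.2%, 40.5% and 18.1%. With the PBE-box only, the median peak stood at 48.1%, 24.4%, 53.8% and 22.4%, in list 1 thus further down than without a box. Few peaks passed a false discovery rate of 5%. Without a box, 0, 7, 0 and 21 did (0%, 3.24%, 0% and 7.66% of the sites' peaks in lists 1 to 4), against 2.45%, 16.5%, 0.292% and 20.8% with a box, and against 1.44%, 4.57%, 0.19% and 5.73% of all peaks of lists 1 to 4. In lists 1 and 3 the rate that the caller gave was 100% for 75 of 76 and 101 of 101 of the peaks without a box. In list 4 it was 100% for 126 of 274. With a box it was 100% for 386 of 408, 342 of 343 and 262 of 720 peaks in lists 1, 3 and 4. Among all peaks of these lists it was 100% for 673 of 696, 525 of 526 and 2164 of 3089. Sites of both kinds were thus selected by recurrence and not by this rate.

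**Figure D2:**
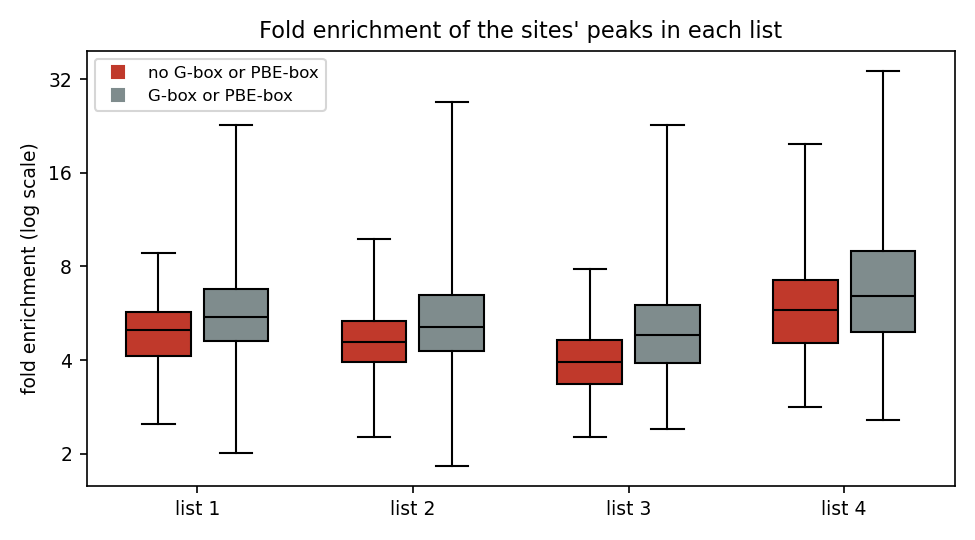
Fold enrichment of the peaks (log axis) at sites without a box and sites with a box, in each of the 4 lists. The medians without a box, 4.985, 4.565, 3.95 and 5.78 in lists 1 to 4, lie below those with a box in every list, while the bulk of the values overlaps.

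In all 4 lists, 16 sites without a box were present. Their median fold was 5.26, 5.7, 4.335 and 7.405 in lists 1 to 4, below that of the 159 sites with a box in all lists, 6.78, 7.14, 5.83 and 10.96. The nearest protein-coding transcription start site lay between 46 bp (*MYB10*) and 3543 bp (*EXO*) from their mean summits. The site 108 bp upstream of *AT1G23710* (chr1:8384980-8385180) had folds of 8.86, 9.26, 4.71 and 9.8 with 175, 201, 258 and 597 tags in lists 1 to 4, the highest fold of any site without a box in list 1. A PBE-box began just beyond the limit there, 104 bp from the mean summit. The site in the 5' UTR of *NAC089*, the gene of a membrane-bound NAC transcription factor, had folds of 7.85, 6.93, 5.69 and 9.78 with 126, 170, 160 and 291 tags, so that it was high in each list.

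In *MYB10*, an R2R3 MYB gene, the mean summit fell in the coding sequence 46 bp after the transcription start site (TSS), with folds of 5.32, 7.65, 6.85 and 18.64 and with 73, 136, 169 and 387 tags in lists 1 to 4. The site 136 bp upstream of *bbx23*, which also lies 252 bp upstream of the small heat shock protein gene *ATHSP22.0* on the other side, had folds of 5.2, 4.92, 4.48 and 13.68. The site 822 bp upstream of *AT1G55210* had 6.09, 8.21, 5.33 and 15.62, and that 2145 bp upstream of *MYB7* had 5.83, 5.51, 4.16 and 13.04. List 4 gave by far the highest fold at these 4 sites, whereas the other lists stayed between 4.16 and 8.21. The fold at *AHL20* (486 bp upstream), by contrast, was highest in list 2, at 6.97, 9.17, 5.28 and 5.87 in lists 1 to 4, and so was that at *HMT-1* (866 bp upstream), at 5.32, 8.85, 4.06 and 6.31.

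List 2 was also highest at the annotated non-coding gene *AT5G06945*, which the site overlaps, with 5.7, 9.81, 4.65 and 6.65. At *AT1G17500*, 1489 bp downstream of the site, the folds were 3.95, 5.07, 6.3 and 8.18. *AT4G06744* lay nearest to a site with no TSS downstream within 5 kb, where the folds were 4.44, 4.16, 4.05 and 7.22. The remaining 5 sites were below the median fold of the 16 sites in most lists. At *BT1*, which encodes a BTB and TAZ domain protein, the folds were 4.38, 3.89, 2.44 and 4.57 (1366 bp upstream), and at *EXO* 3.66, 4.85, 2.82 and 7.59 (3543 bp upstream). In the 5' UTR of *DGD1*, the gene of a galactolipid synthase, they were 3.64, 5.89, 2.76 and 3.79, and in the 5' UTR of the MAP kinase gene *MPK17* 4.19, 3.5, 3.68 and 4.14. The lowest fold among the 16 sites was thus 3.64, 3.5, 2.44 and 3.79 in lists 1 to 4, near the lowest among the 159 sites with a box, 3.3, 3.22, 2.69 and 3.7. The site 52 bp upstream of *AT3G58730*, which encodes subunit D of the vacuolar ATPase, had 3.89, 5.26, 4.19 and 5.35.

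**Figure D3:**
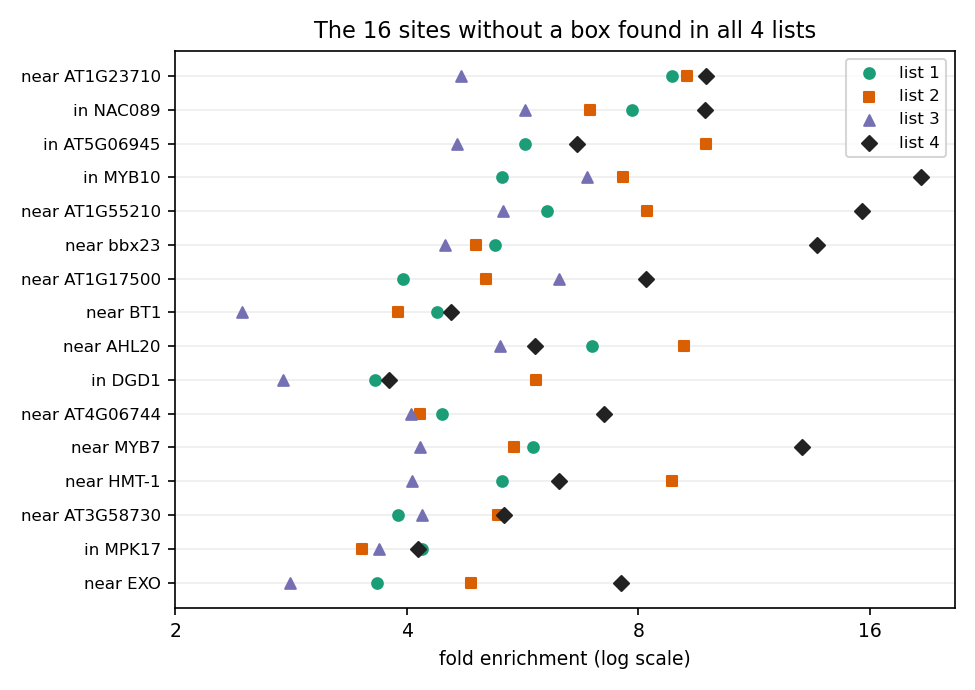
Fold enrichment (log axis) in lists 1 to 4 at each of the 16 sites without a box that were present in all lists, 1 row per site, named by the nearest or overlapping gene. List 4 stands far to the right at *MYB10*, *AT1G55210*, *bbx23* and *MYB7*, with 18.64, 15.62, 13.68 and 13.04, and near the other lists at *MPK17* and *DGD1*.

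Among the sites in 3 lists, the 10 with the best mean rank by p-value included the single highest fold without a box. This was the site 1433 bp upstream of *RAV1*, with 6.5, 5.57 and 19.75 in lists 2, 3 and 4 and 103, 199 and 613 tags. A further site without a box lay 4760 bp upstream of the same gene, with folds of 6.07 in list 2 and 5.68 in list 4. The folds were even over the lists in an intron of *SLAH3*, an anion channel gene, at 8.11, 7.99 and 8.08 in lists 1, 2 and 4. They were similarly even 799 bp upstream of *AT5G20030*, at 7.86, 6.71 and 7.85 in the same lists. Upstream of *AT2G39950*, by 192 bp, they were 8.1, 4.03 and 10.58 in lists 2, 3 and 4, and 1463 bp upstream of *AT3G54000* they were 6.5, 6.19 and 9.1. At the other 5 sites (in an intron of *AT3G16180*, in the 3' UTR of *AT1G26920*, 32 bp upstream of the ADP-ribosylation factor gene *ARF1*, nearest to *SAUR9*, and between *RECQL2* and *MIR404*) the folds ran between 4.35 and 14.26. Of the sites in 2 lists, that nearest to *AT1G75550* had one of the highest folds of list 1, with 8.62 there and 6.27 in list 4, and that upstream of the non-coding gene *AT1G06403* had one of the highest of list 3, with 7.08 there and 9.66 in list 4.

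The sequences that differed most between the summits and their flanks were none of the E-boxes that the rule had left. The G-box and the PBE-box had been taken out of both by the rule, and so could not lead. All 2080 sequences of 6 bases, each counted with its reverse complement, were compared between the 292 sites (201 bp) and 517 equally long windows, placed 500 bp away on both sides, that also held neither box, with Fisher's exact test over windows and p-values adjusted over all 2080 (Benjamini-Hochberg). At an adjusted p of 0.05, 162 sequences (7.79%) were more frequent at the sites and 66 (3.17%) less frequent. These counts fell to 60 and 8 without replicate 2 and to 29 and 3 without replicate 4, where fewer sites were left to test. The leading one was ATGGGC, in 92 of 292 sites (31.5%) and 18 of 517 flanking windows (3.48%), an odds ratio of 12.8 (adjusted exact p = 4.8e-25). CCCATA, which reads TATGGG on the other strand, was in 31.5% of sites and 5.61% of flanking windows (adjusted exact p = 2.6e-19), and CATGGG in 20.5% and 2.13% (adjusted exact p = 1.2e-15). CCATAC (22.6% of sites and 4.06% of flanks), CCATGC (20.9% and 3.29%) and ACCCAT (26.4% and 8.12%) share 4 or more bases with these, so that they are in part counts of the same stretches.

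Of the other 4 of the leading 10, GGCCCA and GCCCAC share the run GCCCA with the leading sequence. GGCCCA, the complement of the site II element TGGGCC, was in 17.5% of sites and 1.93% of flanking windows (adjusted exact p = 9.4e-13). ACGTGG, which holds 5 of the 6 bases of the G-box, was in 17.1% and 2.13% (adjusted exact p = 7.9e-12). GGACCC was in 12.3% and 1.16% and GCCCAC in 13.4% and 1.55%, both with an adjusted exact p of 2.9e-09. The 10 leading sequences among those less frequent at the sites were rich in A and T, as AATTTA, in 22.3% of sites and 39.8% of flanking windows (adjusted exact p = 2.1e-05), TATAAA, in 23.3% and 39.3%, AAAATT, in 34.6% and 50.5%, and AAATTT, in 17.1% and 30.4%. The same held for ATCAAA (22.9% of sites and 38.3% of flanks), TAACAA (14.4% and 27.9%), GAAATC (6.51% and 16.6%), TATGAA (13.0% and 24.8%), AATGGT (23 of 292 and 91 of 517 windows) and AAACTT (14.7% and 26.1%). Over the alternative settings run against flanking windows, these calls were less stable than those of the more frequent sequences. With flanking windows 1000 bp away, 8 of the 10 were not called, with odds ratios for AATTTA and AAAATT of 0.699 (adjusted exact p = 0.22) and 0.853 (adjusted exact p = 0.66), and none of the 10 was called in all 12 alternative settings. Base composition moved with these results. The median GC content was 37.1% at the sites, 30.8% in the flanking windows and 39.3% at sites with a box, and its part in the counts was not tested.

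**Figure D4:**
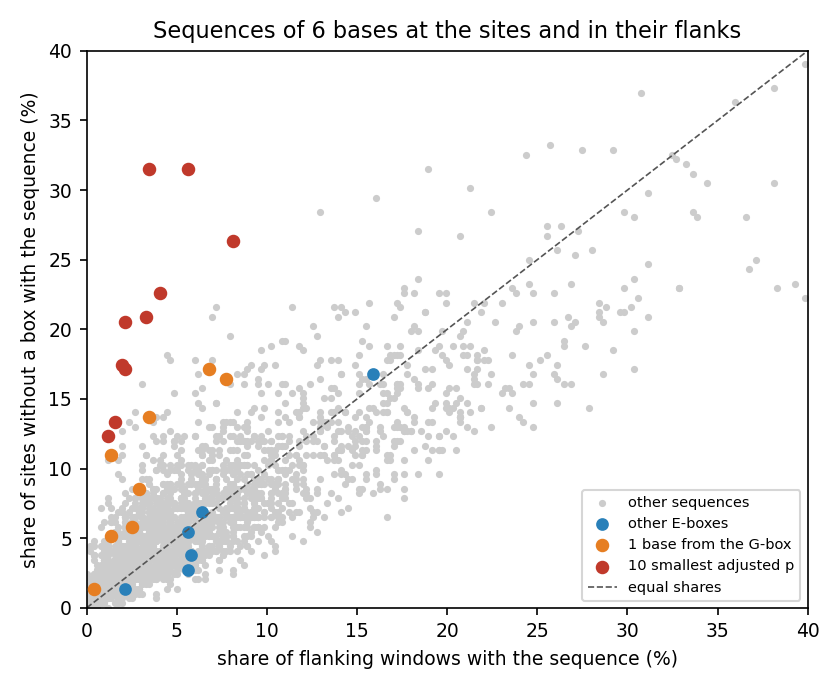
Share of the 292 sites without a box (vertical axis, percent) against the share of the 517 flanking windows (horizontal axis, percent) that hold each sequence of 6 bases, with the dashed line marking equal shares and both axes ending at 40%. The leading 10 sequences, with ATGGGC and CCCATA at 31.5% of sites, stand far above the line, and the other E-boxes lie near it except CAAGTG, at 17.1% of sites and 6.77% of flanks.

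Part of this set was as frequent, or more so, at sites with a box. Against those 772 sites only 7 of the 2080 sequences (0.337%) were more frequent at sites without a box. ATGGGC was in 31.5% of sites without a box and 18.01% of those with a box (odds ratio 2.09, adjusted exact p = 0.00038), and CCCATA in 31.5% and 13.2% (odds ratio 3.02, adjusted exact p = 9.6e-09). CCATAC (22.6% and 9.72%) and CCATGC (20.9% and 10.9%) followed, and the other 3 were GCCATA (30 of 292 sites without a box and 32 of 772 with a box), CATATA (68 and 111) and ATGAAT (64 and 102). None of these last 3 was called against the flanking windows. CATGGG (20.5% and 18.4%, adjusted exact p = 0.96) and GGCCCA (17.5% and 17.4%, adjusted exact p = 1.0) did not pass. ACGTGG was in 17.1% of sites without a box and 54.1% of those with a box, a difference that the rule itself sets in part, since it took out the G-box.

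In a further comparison, chosen after the first results were seen, the 201 bp before the TSS of protein-coding genes served as the background, 23443 windows that held neither box. Of the 2080 sequences, 328 (15.8%) were more frequent at the sites than in these promoters, and 148 were more frequent in both comparisons. Of the leading 10, 9 were called here too. ATGGGC was in 11.4% of promoter windows, which leaves an odds ratio of 3.56 in place of 12.8. GGCCCA was in 17.5% of sites and 12.8% of promoter windows and was not called (adjusted exact p = 0.077), alone among the leading 10. CCATGC was called with the largest odds ratio of the 10, 9.26, at 20.9% of sites and 2.77% of promoter windows. The 10 leading sequences among those less frequent than in flanks were all called as less frequent than in promoter windows too. Their odds ratios ran from 0.410 (AAACTT) to 0.592 (ATCAAA).

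Groups of sequences were then counted over the 201 bp, likewise chosen after the first results, and are given without a test. ATGGGC or ATGGGT was in 144 of the 292 sites (49.3%, exact 95% interval 43.4% to 55.2%), against 11.6% of their flanks, 34.5% of sites with a box, 16.8% of promoter windows and 11.1% of the 524380 windows with neither box among those that tile the genome. The longer GCATGGG or GTATGGG was in 61 sites (20.9%), against 1.16% of their flanks, 8.55% of sites with a box, 1.64% of promoter windows and 1.74% of genome windows. The G-box core ACGTG was in 104 sites (35.6%), against 12.4% of flanks and 15.0% of promoter windows. It was in 77.8% of sites with a box, since each G-box holds it. In all, 214 sites (73.3%) held ATGGGC or ATGGGT, the core ACGTG, or the E-box CAAGTG, against 27.3% of flanks, 34.7% of promoter windows and 27.9% of genome windows. The share was higher at sites with a box, at 89.0%. Of the 214 sites, 49 held the core together with ATGGGC or ATGGGT. The remaining 78 (26.7%) held none, and 44 of them (15.1% of the 292) held no other E-box either.

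Copies of ATGGGC and ATGGGT were often repeated. Of the 144 sites, 102 held 1 copy, 32 held 2 and 10 held 3 or more, 199 copies in all, and the printed sequences of *AT1G55210*, *AT2G39950* and *WAG2* show 2 each within 81 bases. No 2 of the 292 sites shared an exact run of 30 bases. Shorter or diverged copies of DNA were not tested. The copies lay close to the summit. Of the 199, 102 (51.3%) were within 20 bp of the mean summit and 154 within 50 bp, with a median distance of 19.5 bp, while 45 lay at 50 to 100 bp and 20 at 200 to 250 bp. ACGTG had 51 of 133 copies within 20 bp (38.3%; median 29 bp) and CAAGTG 18 of 55 (32.7%; median 29.5 bp). The other 7 E-boxes were spread more evenly, with 36 of 134 copies within 20 bp (26.9%; median 43.5 bp), 75 within 50 bp and 63 at 200 to 250 bp. No test was made of these shares.

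**Figure D5:**
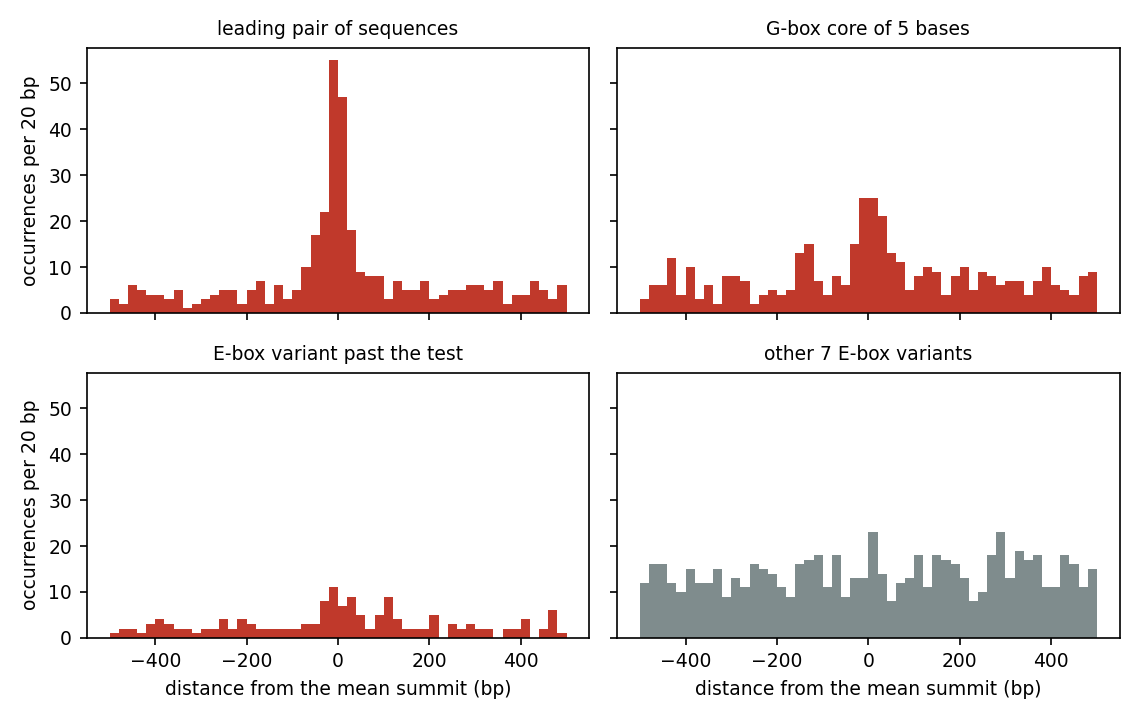
Occurrences per 20 bp of the leading pair (ATGGGC or ATGGGT), the G-box core ACGTG, the E-box CAAGTG and the other 7 E-boxes, against the distance from the mean summit in bp, over the 292 sites without a box. The leading pair is heaped at the summit, with 102 of its 199 copies within 100 bp lying within 20 bp, and the other 7 E-boxes show no such heap.

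Of the 8 E-boxes other than the G-box and the PBE-box, only CAAGTG was called. It was in 50 sites (17.1%) and 6.77% of flanking windows (odds ratio 2.85, adjusted exact p = 0.00035), and in 10.5% of sites with a box (adjusted exact p = 0.16). It was not called without replicate 4 (adjusted exact p = 0.28) or with 3 lists needed (adjusted exact p = 0.24). CACCTG was in 5.82% of sites and 2.51% of flanks (adjusted exact p = 0.11), CAAATG in 16.8% and 15.9%, CATATG in 6.85% and 6.38%, and CAATTG in 5.48% and 5.61%. CAACTG (2.74% and 5.61%), CAGATG (3.77% and 5.8%) and CAGCTG (1.37% and 2.13%) were at lower shares of sites than of flanks, without passing the test. A window with any of the 8 was common everywhere, at 47.9% of sites, 39.5% of flanks, 45.3% of sites with a box, 39.0% of promoter windows and 46.7% of genome windows. The share at the sites, with an exact 95% interval of 42.1% to 53.8%, was thus near that of genome windows and above those of flanks and promoter windows, and it was not tested as a group.

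Of the 8 sequences that differ from the G-box in a single base and are not the PBE-box, 6 were called. CACGTC was in 10.96% of sites and 1.35% of flanks (adjusted exact p = 2.6e-07), CACGTA in 13.7% and 3.48% (adjusted exact p = 1.9e-05) and AACGTG in 16.4% and 7.74% (adjusted exact p = 0.0058), and these 3 keep the ACGT core. CAAGTG, given above, CACGAG (8.56% and 2.90%, adjusted exact p = 0.011) and CACGCG (5.14% and 1.35%, adjusted exact p = 0.030) do not. CACCTG and CACGGG (1.37% and 0.387%, adjusted exact p = 0.45) were not called. Of the 12 alternative settings, CACGTA was called in 11 and CACGTC in 10, but AACGTG in 8, CACGAG in 7 and CACGCG in 5, with losses without replicate 2 and without replicate 4 for the last 3. The median fold of sites with ATGGGC or ATGGGT was 5.07, 4.61, 4.04 and 6.58 in lists 1 to 4, that of sites with ACGTG 4.69, 4.525, 4.05 and 6.02, and that of the 78 sites with none of the sequences 5.01, 4.52, 3.64 and 5.285. Presence in 3 or 4 lists was 27.8% of sites with ATGGGC or ATGGGT, 26.9% with ACGTG, 24.0% with CAAGTG and 17.9% of those with none, again without a test. Of the 16 sites in 4 lists, all but 3 held at least 1 of these sequences, against 73.3% of all 292 sites.

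Sites without a box lay between genes less often than sites with a box. By the RefSeq annotation of TAIR10.1, 183 of 292 mean summits (62.7%, exact 95% interval 56.8% to 68.2%) were intergenic, against 578 of 772 (74.9%, 71.7% to 77.9%), with an odds ratio of 0.564 (Fisher's exact test, two-sided, p = 0.00013). The share in a 5' UTR was 21.6% (63 sites) without a box and 13.2% with a box, that in coding sequence 6.16% (18 sites) and 2.98%, in introns 3.08% and 1.42%, and in 3' UTRs 3.08% and 2.07%. Annotated non-coding genes and pseudogenes held 3.42% of sites without a box and 5.44% of those with a box. The odds ratio did not pass the test without replicate 2 (0.725, p = 0.13) or without replicate 4 (0.650, p = 0.11), in Fisher's exact test. Nor did it with peaks at a p of 1e-10 or lower (0.664, exact p = 0.15) or with sites in 3 lists or more (0.712, exact p = 0.29). The sites were spread over all chromosomes, with 81, 45, 50, 52 and 64 on chromosomes 1 to 5.

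Sites without a box were counted more often just downstream of a TSS. The median distance to the nearest protein-coding TSS was 735.5 bp without a box and 867 bp with a box. Of the sites without a box, 18.8% (55) lay 0 to 200 bp downstream of it and 10.96% (32) 0 to 200 bp upstream, whereas 10.8% and 14.0% of the sites with a box did. No test was made of these distances.

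A gene was assigned to a site where the site lay in the gene, or where the site was intergenic and the TSS lay within 5 kb downstream with no other annotated gene between. Of the 183 intergenic sites, 168 had such a TSS, 68 of them on both sides, and 15 had none. In all, 347 genes, 301 of them protein-coding, stood next to or around a site without a box. Of the 292 sites, 30 (10.3%) shared a gene with a site that holds a box. Few of them lay beside a site with a box, in that 9 (3.08%) had a site with a box within 1 kb and 70 (24.0%) within 10 kb, against 4.15% and 25.6% of sites with a box that had another of their kind at these distances. The nearest box of either kind lay a median of 594 bp away, and 53 sites had one between 100 and 200 bp. A gene had more than 1 site without a box in 8 cases: *RAV1*, *HEC2*, *NPY5*, *AILP1*, *AT3G53990*, *AT3G54000*, *AT5G19130* and *AT5G44440*. These cases are not all separate. The same sites lay between *AT3G53990* and *AT3G54000* and were counted for both genes, as were those between *AT5G19130* and *AILP1*.

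Genes of 14 functional lists were looked up among these neighbors. Of 426 list genes, 18 (4.23%) stood next to a site without a box and 76 (17.8%) next to a site with a box, against 301 (1.1%) and 730 (2.66%) of all 27444 protein-coding genes. The lists had been compiled with the study's subject and earlier results of these data in view, so that neither share stands as evidence on the lists. The auxin list led, with 7 of 52 genes next to a site without a box and 18 next to a site with a box. Light signaling followed with 3 of 41 and jasmonate and defense with 2 of 34. Brassinosteroid, ethylene, cytokinin, cell wall, B-box and heat and cold stress genes had 1 each. Gibberellin, abscisic acid, circadian clock, photosynthesis and housekeeping genes had none, although 4, 11, 6, 2 and 2 of their genes stood next to a site with a box.

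The auxin genes cover several steps of the pathway. The receptor gene *TIR1* had a site 965 bp upstream, with folds of 5.17 and 5.66 and with 216 and 450 tags in lists 2 and 4. For transport, a site lay in an intron of the efflux carrier gene *PIN3* (4.34 and 5.14 in lists 2 and 4) and another 3195 bp upstream of *WAG2*, whose kinase acts on such carriers (3.97 and 3.46). Conjugation of auxin to amino acids was represented by the GH3 gene *WES1*, 2364 bp downstream of a site with folds of 3.98 and 4.6. Among responsive genes, sites lay in the 5' UTRs of the HD-Zip II genes *HAT2* (3.46, 2.72 and 4.19 in lists 1, 3 and 4) and *HAT3* (3.8 and 6.14 in lists 3 and 4) and of the organ-size gene *ARGOS* (4.13 and 3.18 in lists 2 and 4). Each of these sites but that of *HAT2*, which was in 3 lists, was present in 2 lists. *PIN3* and *WAG2* also stood next to a site with a box.

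Among light genes, the photoreceptor gene *PHYA* had a site in its 5' UTR with 409 tags and a fold of 3.57 in list 3 and 1476 tags and a fold of 6.58 in list 4, while lists 1 and 2 had none. Both peaks were weak by p-value, at rank 500 of 526 in list 3 and 2407 of 3089 in list 4. Their false discovery rate was 100% in each. *HEC1* and *HEC2*, which encode bHLH proteins, had sites in their 5' UTRs, with folds of 6.78 and 4.18 at *HEC1* and 3.83 and 3.83 at *HEC2* in lists 2 and 4. *HEC2* had a further site 2377 bp upstream (3.42 and 4.65 in lists 3 and 4). *BAS1*, whose product inactivates brassinosteroids, lay 56 bp downstream of a site with 5.12 and 7.55 in lists 2 and 4. It also stood next to a site with a box, as did *RAV1*, *WRKY22* and *XTH33*.

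In defense, the transcription factor gene *WRKY18* had a site 583 bp upstream with folds of 5.58 and 7.84 in lists 1 and 4, and *WRKY22* one 1197 bp upstream with 4.69 and 5.12 in lists 2 and 4. Lists 2 and 4 also gave 4.16 and 8.31 at the dehydrin gene *ERD14* (747 bp) and 4.02 and 3.05 at the cytokinin response factor gene *CRF2* (892 bp), and lists 3 and 4 gave 3.25 and 4.52 at the cell wall enzyme gene *XTH33* (599 bp). The folds at *RAV1* and *bbx23*, also list genes, are given above.

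The limit of 100 bp for a box cut through a continuous range. Just beyond it lay the sites near *AT4G13790* (PBE-box at 101 bp; folds of 2.95 and 3.7 in lists 2 and 4) and *AT1G23710* (at 104 bp). Just inside it, and so counted with a box, were those near *AT1G07210*, *AT2G31220* and *CP1* at 95 bp, *CBL1* and *RGLG3* at 96 bp, and *PDX1.2* and *IQD22* at 98 bp, with folds between 2.81 and 6.72.

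At 2 sites, picked out after their values were seen, tags were many and the fold low. At the non-coding gene *AT2G00340* near the end of chromosome 2 (chr2:9937-10137), 1618, 1604 and 2203 tags in lists 1, 2 and 3 gave folds of 3.79, 3.64 and 3.37. In the coding sequence of *AT3G41762* (chr3:14195885-14196085), 959 and 960 tags in lists 1 and 2 gave 2.49 and 2.26. Neither was present in list 4, the list that held 93.8% of the sites without a box, and the summits of the lists fell within 1 bp of each other at the first and on the same base at the second.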

How the data were processed

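ChIP-seq libraries of P3M and WT seedlings, 4 biological replicates each, were used as 4 peak lists. Per the submitters' processing notes, the authors used CASAVA 1.7.0 for the reads, Bowtie 0.12.7 for alignment (TAIR9) and MACS 1.4.0rc2 for the peaks, with the P3M library of a replicate as treatment and its WT library as control. The deposited columns are the count of P3M tags, a score of -10 log10 of the p-value, the fold enrichment over local background (a ratio) and a false discovery rate in percent, all as the authors made them with MACS and not rescaled here. Numbers pair P3M with WT within a list, and lists were the unit of the paired tests. Reads and coverage were not analysed here.

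Summits were joined, boxes located and genes assigned as stated with the results, on the RefSeq copy of TAIR10.1, whose 5 chromosome lengths hold all deposited peaks. The TAIR9 annotation was not used here. Tests were exact sign-flip permutation tests over lists and Fisher's exact tests over sites or windows, run with scipy 1.17.1 and numpy 2.4.6 under Python 3.11.15 (figures: matplotlib 3.10.9), and the scripts were tested on simulated data. Of 463 list entries, 7 matched no symbol and 9 matched more than 1 gene.

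Alternatives changed the joining distance (50 or 150 bp), the box limit (50 or 150 bp), the peaks kept (p of 1e-10 or lower), the lists needed (3), the flanks, the genes and the replicate left out. The sites and gene lists were chosen with earlier results of these data known. Sites were named if in all 4 lists, if among the 10 best ranked in 3 lists, if among the 2 highest folds of a list, if next to a list gene, or if a box lay within 5 bp beyond the limit. Sequences were named if among the 10 with the smallest adjusted p in either direction, if another E-box, or if a single base from the G-box. Sequence groups, the promoter comparison, the 7 sequences set against sites with a box, and the 2 sites of many tags were chosen after seeing the data. The replicates are biological, but P3M is 1 line. The p-values of the sign-flip permutation tests measure the spread between these lists only. Those of Fisher's exact tests count sites or windows and hold no spread between replicates.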

Additional observations from a re-analysis of the deposited data

Results flagged for a closer look

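Among the 16 sites without a box present in all 4 lists, 2 had 1 list that stood far from the other 3 in fold enrichment by Dixon's test at the 95% level. The site upstream of *bbx23* had 13.68 in list 4, against 5.20, 4.92 and 4.48 in lists 1 to 3. The site nearest to *AT4G06744* had 7.22 in list 4, against 4.44, 4.16 and 4.05 in lists 1 to 3. In all, 20 sets of 4 values were tested, of which chance flags about 1, and the lists have their own scales, so that the folds of different lists are not replicate measurements on 1 scale. The cause was not tested.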

How the results depend on the processing

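The 10 leading sequences among the more frequent kept their direction and an adjusted p of 0.05 or lower under each of the 12 alternative settings run against flanking windows, with odds ratios for ATGGGC from 9.10 to 21.4, while CAAGTG passed in 10 of the 12. The 10 leading sequences among the less frequent kept their direction, but 43 of their 120 calls were lost, 8 of them with flanks 1000 bp away. The lower recovery, fold and tags kept their direction under all alternatives run. Without the replicate block, that is without pairing by list, exact unpaired permutation tests gave -20.2 percentage points for recovery (p = 0.31), and log2 ratios of -0.19 for fold (p = 0.29) and -0.20 for tags (p = 0.71). With boxes less than 50 bp from the summit, the share of sites without a box was 33.2%, 109 sequences were less frequent and 2 other E-boxes were called, and with boxes less than 150 bp away the share was 24.4%. With peaks at a p of 1e-10 or lower there were 76 such sites (18.18%), an intergenic odds ratio of 0.664 (Fisher's exact p = 0.15), and 22 more and 3 less frequent sequences. With 3 lists needed there were 67 sites (15.0%), an odds ratio of 0.712 (Fisher's exact p = 0.29), 22 more frequent and 1 less frequent sequence, and 0 other E-boxes. Leaving out 1 replicate gave 84 to 260 sites, shares of 16.4% to 28.2%, intergenic odds ratios of 0.538 to 0.725, 29 to 153 more frequent and 3 to 65 less frequent sequences, and 0 to 1 other E-boxes. The lowest counts came without replicate 4 (84 sites, 29 sequences), followed by replicate 2 (139 sites, 60 sequences). Flanks 1000 bp away gave 102 and 32 sequences, and promoter windows, chosen after seeing the data, 328 and 149 with 2 other E-boxes. Fewer windows were tested in the stricter settings, and for the other shifts the cause was not tested.

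Odds ratios of sequences that were not called in these settings crossed 1 for CAATTG (1.01 at a joining distance of 50 bp, 1.15 with boxes under 50 bp, 1.77 at a p of 1e-10, 0 to 1.00 when 1 replicate was left out, highest without replicate 3, and 1.099 with flanks at 1000 bp), CAGATG (1.09 with boxes under 50 bp), CAGCTG (1.32 with boxes under 150 bp), CATATG (0.589 at a p of 1e-10, 0.872 to 1.64 when 1 replicate was left out, lowest without replicate 2, and 0.80 with flanks at 1000 bp), CACGAG (0.695 with 3 lists needed), CACGGG (0.880 to 7.13 when 1 replicate was left out, lowest without replicate 2, and 0.756 with flanks at 1000 bp) and CAAATG (0.904 with flanks of the same class). With 16 sites in all lists and 18 list genes, counts in single classes were too few to compare.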
